A study of Mus musculus with 32 samples.

Results

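Of the 2601 PRDM9 peaks listed for B6 testes, 460 (17.7%) lay in H3K4me3 common to both strains and away from DMC1, and these 460 intervals, called class 2A, are described here. They were chosen by measured values. A peak was taken when it met the central 400 bp of no DMC1 interval of B6 and when at least 10% of its length was covered by H3K4me3 intervals common to both strains. The absence of DMC1 and the presence of H3K4me3 are therefore part of the choice and no finding. All 460 members were used in every count below, with no filter on width or place.

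PRDM9 is a meiotic histone methyltransferase that binds DNA through an array of zinc fingers and marks nearby nucleosomes with H3K4me3 and H3K36me3. SPO11 then breaks the DNA at a subset of these sites, and the recombinase DMC1 coats the resected ends, so that DMC1 ChIP-seq maps the breaks. Promoters carry H3K4me3 without PRDM9, placed by other methyltransferases at CpG-rich starts of transcription, often on both sides of a nucleosome-depleted stretch.

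PRDM9 was mapped by ChIP-seq with an anti-PRDM9 (BdM) antibody in whole testes at 13 days after birth, in mice of the C57BL/6JOlaHsd strain (B6), with 2 ChIP replicates. The lists compared with it came from RJ2 mice (B10.MOLSGR(A)-(D17Mit58-D17Jcs11)/Bdm), which carry another Prdm9 allele, from Prdm9KO mice (B6;129P2-Prdm9tm1Ymat/J, 1 ChIP library) and from Spo11KO mice (Spo11tm1M, 2 ChIP replicates), all at the same age. DMC1 came from whole testes at 5 weeks, in duplicate for each strain, and H3K4me3 in elutriated pachytene cells of adults, with 1 library per strain. The replicates were pooled into 1 list of intervals per genotype on the mouse build mm9, without scores or read counts, so that the depth behind each interval is unknown here, tests count peaks rather than animals, and the 95% Clopper-Pearson intervals given in brackets cover the sampling of peaks only. B6 mice express the Dom2 allele of PRDM9 and RJ2 mice the Cst allele. Class 1 peaks, used for comparison, have DMC1 or strain-specific H3K4me3 (1881 peaks of B6). The list of B6 peaks is not sorted by position. The median width of class 1 peaks fell along it from 819.5 bp in the first 325 places to 327.5 bp in the last 326, and that of the members from 586 to 307.5 bp, so a place in the list is used below as a rough measure of the strength of a peak.

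At the limits of the rule, the members with the lowest coverage by common H3K4me3 had 13.6%, 15.2% and 27.5%, and 2 peaks with coverages of 8.0% and 7.2% were left out. The members nearest to the central part of a DMC1 interval were 629, 911 and 975 bp away from it. The class 1b peaks nearest to the same limit, which have DMC1 and common H3K4me3, overlapped it by 47, 116 and 158 bp. The 3 members with the least coverage were chr16:13818513-13818828, chr11:54674094-54674409 and chr7:135047433-135047737, and the 3 nearest to DMC1 were chr2:3249769-3250620, chr9:64020495-64021390 and chrX:132650254-132650655.

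Shown here are members from early in the list whose central 120 bases held the most frequent word described below. They were picked for that word, with other members between them in the list. Each run is the reference sequence of mm9 over the central 120 bases of the peak, read in the direction of the nearest gene, and capitals mark each copy of the word TCGCGAGA or of its reverse complement TCTCGCGA, which overlap in the palindrome TCTCGCGAGA. The windows are those of Rbm39 (a splicing-associated RNA-binding protein, chr2:156005963-156006082, minus strand), Eif4a3 (the helicase of the exon junction complex, chr11:119161431-119161550, minus strand), Hspa4 (a chaperone of the heat shock 70 family, chr11:53113976-53114095, minus strand), Tipin (a partner of Timeless at replication forks, chr9:64129323-64129442, plus strand), Supt5h (a transcription elongation factor, chr7:29123729-29123848, minus strand) and Ankfy1 (chr11:72503389-72503508, plus strand).
Rbm39: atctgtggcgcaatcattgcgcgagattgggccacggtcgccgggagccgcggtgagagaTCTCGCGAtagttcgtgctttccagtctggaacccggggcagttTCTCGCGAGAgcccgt
Eif4a3: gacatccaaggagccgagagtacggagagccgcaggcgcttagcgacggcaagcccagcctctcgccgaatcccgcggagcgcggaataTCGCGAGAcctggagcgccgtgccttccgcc
Hspa4: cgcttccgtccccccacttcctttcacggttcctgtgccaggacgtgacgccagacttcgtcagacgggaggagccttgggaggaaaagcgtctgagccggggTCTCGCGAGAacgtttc
Tipin: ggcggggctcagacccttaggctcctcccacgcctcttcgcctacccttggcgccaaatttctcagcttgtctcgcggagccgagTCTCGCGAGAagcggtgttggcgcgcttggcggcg
Supt5h: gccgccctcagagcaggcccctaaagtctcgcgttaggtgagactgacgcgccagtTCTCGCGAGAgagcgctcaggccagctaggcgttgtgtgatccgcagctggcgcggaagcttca
Ankfy1: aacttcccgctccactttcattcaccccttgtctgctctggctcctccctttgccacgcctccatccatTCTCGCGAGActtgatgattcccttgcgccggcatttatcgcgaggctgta

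Some members between them had windows without the word. Examples are Ube2d3 (a ubiquitin-conjugating enzyme, chr3:135101015-135101134, plus strand) and Mob1a (an adaptor of the Hippo pathway, chr6:83275892-83276011, plus strand). The peak of Ube2d3 held the word elsewhere in its central 300 bp. Here capitals mark the words CCAAT (NF-Y) and GGGCGGG (SP/KLF) on either strand. The last sequence is the centre of a class 1 peak, place 49 of the list, near Mfap3 (chr11:57349434-57349553, plus strand), with capitals for GGTGCTGCT, a word of the PRDM9 Dom2 motif, for comparison.
Ube2d3: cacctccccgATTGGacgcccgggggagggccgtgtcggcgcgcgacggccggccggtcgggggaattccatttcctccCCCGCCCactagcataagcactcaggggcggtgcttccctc
Mob1a: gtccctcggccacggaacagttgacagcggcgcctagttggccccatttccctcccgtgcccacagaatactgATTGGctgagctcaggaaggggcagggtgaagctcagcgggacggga
Mfap3: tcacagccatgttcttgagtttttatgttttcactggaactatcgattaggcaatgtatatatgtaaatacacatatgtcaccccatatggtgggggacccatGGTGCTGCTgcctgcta
The Rbm39 window held 15 CpG dinucleotides and that of Ube2d3 14, against 1 in the class 1 window near Mfap3.

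The word TCGCGAGA was present in the central 300 bp of 201 of the 460 members (43.7%, interval 39.1 to 48.4%). It was found after the sequences had been seen, by ranking all words of 8 bases by their share among the 222 members at odd places of the list, less their share around 8961 coding genes' starts in common H3K4me3. It ranked first there, with 45.5%, and the 238 members at even places, which the ranking did not use, held it in 42.0% (interval 35.7 to 48.6%). Around the 8961 starts the share was 2.15% (interval 1.86 to 2.48%). These starts include those of genes with a member, to which 137 of the 193 starts with the word belonged. Overlapping words followed it in the ranking, CTCGCGAG with 31.1% of members against 1.72% of starts and CGCGAGAG with 23.0% against 1.85%. The word is the core of the CGCG element of CpG-rich promoters. The element is known as a binding site of ZBTB33 and, when its cytosines are not methylated, of BANP. No data on either protein were used here.

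The other peaks of these lists hardly held the word. It was in the central 300 bp of 2 of 438 class 2A peaks of RJ2 (0.457%, interval 0.0554 to 1.64%), of 2 of 1881 class 1 peaks of B6 (0.106%) and of 5 of 260 class 2B peaks of B6, which have neither DMC1 nor H3K4me3 (1.92%). Class 1b peaks of B6, which share common H3K4me3 with the members, held it in 0 of 72 cases (up to 4.99%). In the list of Prdm9KO testes 4 of 2285 peaks held it (0.175%), in the list of Spo11KO testes 0 of 1070, and in the whole RJ2 list 5 of 10121. Per the paper, peaks found in both strains were taken out of the B6 and RJ2 lists. The RJ2 shares therefore leave out any site with the word that was bound in both strains. All shares are read on the mm9 sequence, which is that of B6, also for RJ2 peaks. In windows of 300 bp moved 1 kb to the left or to the right of the members the word was found 0 times in 460 on each side. These shares carry no test, since the word was picked on the same peaks.

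The share of members with the word fell along the list. It was 70 of 80 (87.5%, interval 78.2 to 93.8%) in the first 325 places, 36 of 51 (70.6%) in the next 325, 31 of 53 (58.5%), 19 of 53 (35.8%), 16 of 52 (30.8%), 14 of 51 (27.5%) and 10 of 60 (16.7%) in the following parts, and 5 of 60 (8.33%, interval 2.76 to 18.4%) in the last 326 places. Members with the word had a median place of 590 and those without it of 1787.

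**Figure D1:**
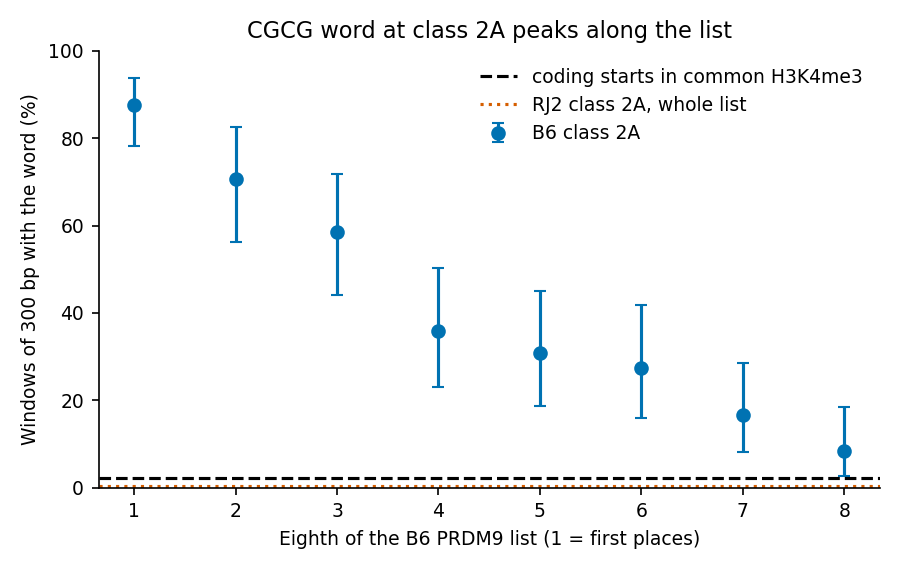
Share of class 2A peaks of B6 whose central 300 bp hold TCGCGAGA on either strand (vertical axis, %), in 8 successive parts of the B6 list (horizontal axis). Points are shares and bars 95% Clopper-Pearson intervals, the dashed line is the share around coding starts in common H3K4me3 (2.15%) and the dotted line that of RJ2 class 2A peaks (0.457%); the points fall from 87.5% to 8.33%.

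Read from the genome, the relation held in the other direction for the complete palindrome. On the autosomes and the X chromosome the palindrome TCTCGCGAGA occurred 218 times, 142 of them in common H3K4me3 intervals, and 111 of these 142 (78.2%) lay inside a member. A further 19 of the 76 sites outside the intervals lay inside a member that reached beyond its H3K4me3. None of the 142 was in a PRDM9 peak of RJ2, Prdm9KO or Spo11KO mice (0 each). Per the paper, the B6 list leaves out peaks shared with RJ2 and peaks over Prdm9KO peaks. For sites inside a member, the 111 included, an overlap with an RJ2 or Prdm9KO peak was thus excluded in advance. The shorter word occurred 2213 times, 435 of them in common H3K4me3, and 208 of these (47.8%) lay in a member, with 3 in a Prdm9KO peak, 4 in an RJ2 peak and 0 in a Spo11KO peak. Among the 348 word sites in common H3K4me3 within 500 bp of a start, 200 (57.5%) lay in a member. The other 1778 sites of the word, outside common H3K4me3, were met by a B6 PRDM9 peak in 46 cases (2.59%), 38 of them members.

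With 1 mismatch allowed the palindrome was in 47.2% of members and 2.43% of starts, with 2 in 60.4% against 10.8%, and with 3 in 83.9% against 58.3%, where the contrast was small. A single copy of the word was in 181 members, 2 copies in 19 and 3 copies in 1. The word lay close to the middle of the PRDM9 intervals, with a median of 42 bp between word and peak centre (from 22 to 78 bp for the central 50% of members), and in 115 of 201 members (57.2%) within 50 bp. Relative to the nearest start its median position was -43 bp (central 50% from -76 to -3 bp), and it lay upstream of the start in 153 of 195 members within 1 kb of one (78.5%).

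**Figure D2:**
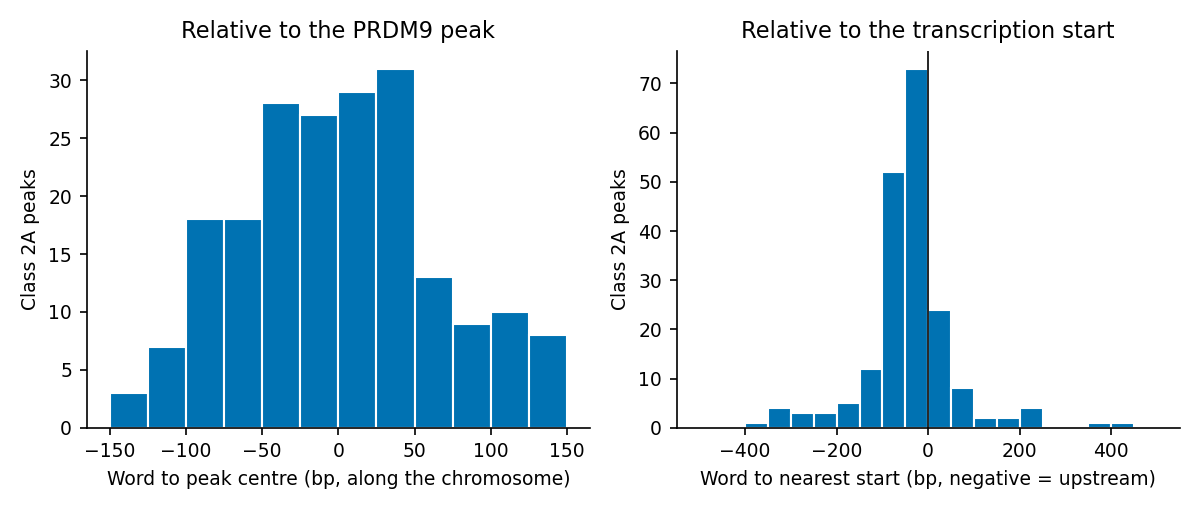
Numbers of class 2A peaks (vertical axes) by the distance in bp from the nearest copy of TCGCGAGA, on either strand, to the peak centre (left, bars of 25 bp, 201 peaks, limited to the central 300 bp by the search) and to the nearest transcription start in the direction of the gene (right, bars of 50 bp, 195 peaks within 1 kb of a start). The word clusters around the peak centre and just upstream of the start, with medians of 42 bp (absolute) and -43 bp.

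The median width was 479 bp with the word and 418 bp without it, the median host H3K4me3 interval 2231 and 1984 bp, and the median GC content of the central 300 bp 61.7 and 58.7%. The CpG ratio, observed over expected CpG, had medians of 0.903 and 0.758. Of the members with the word 195 of 201 (97.0%) were centred within 1 kb of a start, and of those without it 212 of 259 (81.9%). Wholly inside the host were 63.2% of those with the word and 73.0% of those without it. Among the 259 members without it the leading word was CCGCGAGA, a variant of the same core, in 34 (13.1%, against 1.37% of starts), followed by CCCGCGAG (11.2% against 2.27%) and TCCCGCGA (9.27% against 1.32%), which overlap it, and then by GACTACAA (7.34% against 1.52%) and CAACTCCC (8.11% against 2.44%). GACTACAA holds the ACTACAA core of the ZNF143 site.

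The words of common promoter factors were counted in the same windows. GGGCGGG (SP/KLF) was in 30.4% of members and 33.3% of the 8961 starts, CCGGAAG (ETS) in 17.8 and 18.7%, GCGCNTGCG (NRF1) in 12.6 and 11.2%, CCAAT (NF-Y) in 31.5% (interval 27.3 to 35.99%) and 36.9%, AAGATGGCG (YY1) in 5.65 and 3.85%, TGACGTCA (CREB) in 3.04 and 2.80%, TTTCCCGC (E2F) in 3.04 and 1.94%, and TATAAA in 5.65 and 5.74%. ACTACAA (ZNF143) was in 9.35% of members (interval 6.85 to 12.4%) and 4.21% of starts. The core consensus of CTCF, the insulator protein, was in 12 members (2.61%, interval 1.36 to 4.51%) against 0.469% of starts, and in 17.3% of class 2B peaks. The paper scanned for a CTCF motif and found it in most class 2B sites of B6, so this core consensus is a weak measure of the full motif. TAACNG (MYB) was in 23.3 and 21.5%, and GTTGCCATG (RFX) in 0.217 and 1.06%. At least 1 of the 8 words of ETS, SP/KLF, NRF1, YY1, NF-Y, CREB, E2F and ZNF143 was in 331 of 460 members and in 6400 of 8961 starts (71.4%).

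The PRDM9 Dom2 word GGTGCTGCT was in 9 members (1.96%, interval 0.899 to 3.68%), in 5.48% of class 1 peaks and in 0.792% of starts. With 103 of 1881 class 1 peaks, this exact word misses most hotspots and is a weak measure of the full motif. The paper scanned for the full motif and found it at the centre of class 1 peaks, without significant enrichment in class 2A. The 9 members were those nearest to 2310035C23Rik, Fadd, Bckdha, Rps14, Stxbp5, Hat1, Ntan1, 4930447C04Rik and Hspa1b, and 2310035C23Rik (place 187) was the first of them in the list

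The median GC content of the central 300 bp was 60% in the members, 44.7% in class 1 peaks, 49.0% in class 2B peaks and 54.3% in class 2A peaks of RJ2, and 60% around starts. The CpG ratio had medians of 0.836, 0.161, 0.262, 0.502 and 0.735 in the same order. Class 1b peaks, which lie in the same kind of H3K4me3 interval, had a GC content of 45.3% and a CpG ratio of 0.238, far from the members and close to the rest of class 1.

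The members were promoter peaks by position. Of the 460 centres 407 (88.5%, interval 85.2 to 91.3%) lay within 1 kb of an annotated start (GENCODE M1), 390 of these nearest to a protein-coding gene, against 14 of 72 class 1b peaks (19.4%) and 296 of 438 class 2A peaks of RJ2 (67.6%). The 407 had 407 different nearest genes. By annotation, 266 centres were intergenic (57.8%), 105 in an exon with a UTR, 33 in another exon and 56 in an intron. The median distance from centre to start was -49 bp (central 50% from -131 to 7 bp), and 240 of 407 centres (59.0%) were within 100 bp of the start. Upstream of the start were 288 of 407 centres (70.8%, interval 66.1 to 75.1%).

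RJ2 class 2A peaks, chosen by the same rule, lay differently around starts. Their centres had a median of 55.5 bp downstream, 126 of 296 (42.6%) were upstream and 60 of 296 (20.3%) within 100 bp. The share upstream was 28.2 percentage points higher in B6 (two-sided Fisher's exact test, adjusted p = 6.58e-14) and the share within 100 bp 38.7 points higher (exact test, adjusted p = 3.69e-25). Both tests were added after the data had been seen, with adjustment over these 2 tests. They count peaks from 1 pooled list per strain, so their p-values do not measure variation between animals or strains. In the deposited lists Prdm9KO peaks overlapped 32 of the 438 RJ2 class 2A peaks and 0 of the members. The methods describe removing such peaks, so the 0 was set by the making of the B6 list, while the RJ2 list still held some. Without those 32 peaks the RJ2 shares were 43.2% upstream and 19.9% within 100 bp. Between -100 bp and the start lay 38.3% of the B6 centres within 1 kb and 10.5% of the RJ2 centres, and between 200 and 1000 bp downstream lay 13 and 4 members against 64 and 52 RJ2 peaks, counted from 200 to 500 and from 500 to 1000 bp.

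**Figure D3:**
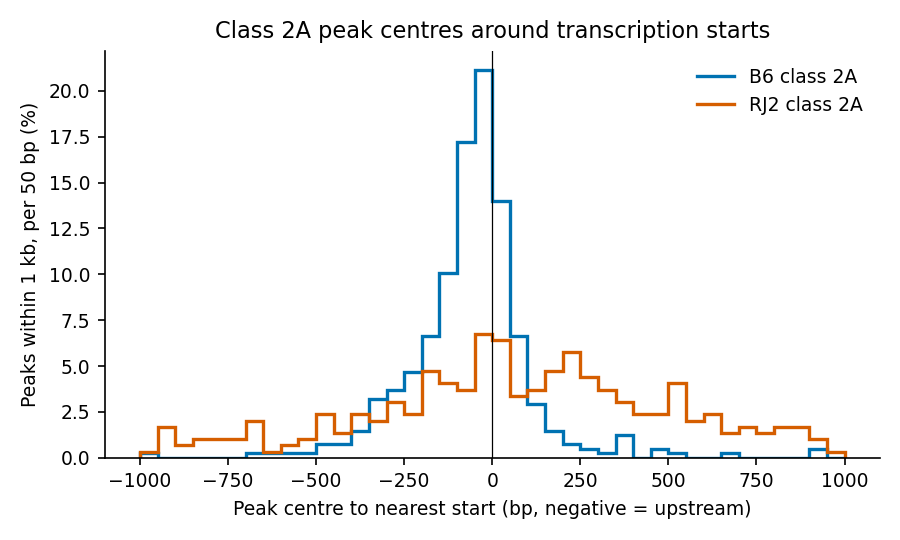
Distance in bp from the peak centre to the nearest annotated transcription start, in the direction of the gene (horizontal axis, negative is upstream), as the share of peaks within 1 kb per 50 bp (vertical axis, %), for 407 class 2A peaks of B6 and 296 of RJ2. The B6 peaks gather within 100 bp of the start, mostly upstream (median -49 bp), while the RJ2 peaks spread over both sides (median 55.5 bp).

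Divergent starts, on opposite strands and pointing apart within 1 kb of the centre, were found at 95 members (20.7%) and at 50 RJ2 class 2A peaks (11.4%). Hosts of divergent members had a median width of 2651 bp and those of other members near a start 2013 bp. The word was as frequent in both kinds, with 47 of 95 (49.5%) and 148 of 312 (47.4%). The 53 members beyond 1 kb of a start lay a median of 11313 bp from one, and 45 of them were intergenic. Their CpG ratio had a median of 0.532 against 0.860 for the 407 near a start, their hosts were narrower (1438 against 2142 bp), and 6 of the 53 (11.3%) held the word. The 5 farthest were nearest to Samd12 (-167655 bp from the start), U6 (-156040 bp, in an intron of B930007M17Rik), Miat (74819 bp), Lrig2 (69708 bp) and Gm2420 (-51007 bp).

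Each member had its own host, the common H3K4me3 interval with the longest overlap, and the 460 members had 460 different hosts. Wholly inside the host were 316 members (68.7%), 143 crossed 1 edge and 1 crossed both. The centre lay between 25 and 75% of the host's length in 239 members (52.0%, interval 47.3 to 56.6%), and it was a median of 399 bp away from the nearest edge. That part makes up 50% of the host. In 5 equal steps from the edges to the middle of the host lay 70, 85, 79, 80 and 114 centres, the most in the innermost step, and 32 lay outside the host. In 33 of 72 class 1b peaks (45.8%) and in 215 of 438 RJ2 class 2A peaks (49.1%) the centre lay in the same part, and neither difference, 6.12 and 2.87 percentage points, passed the test (two-sided Fisher's exact test, adjusted p = 0.483 for both, over the 8 comparisons made).

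Promoter H3K4me3 was often split into separate intervals, and joining them changed this picture. With common intervals joined across gaps of up to 500 bp, 327 members (71.1%, interval 66.7 to 75.2%) had their centre in the middle part, against 32 class 1b peaks (44.4%) and 254 RJ2 class 2A peaks (58.0%). The differences of 26.6 and 13.1 points then passed the test (exact test, adjusted p = 7.69e-05 and 0.000132). Across gaps of up to 2 kb the shares were 74.8, 45.8 and 57.8%, with differences of 28.9 and 17.0 points (exact test, adjusted p = 6.12e-06 and 2.84e-07). Most members thus had their centre near the middle of the H3K4me3 domain when its pieces were joined, against 52.0% for the piece that held them.

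**Figure D4:**
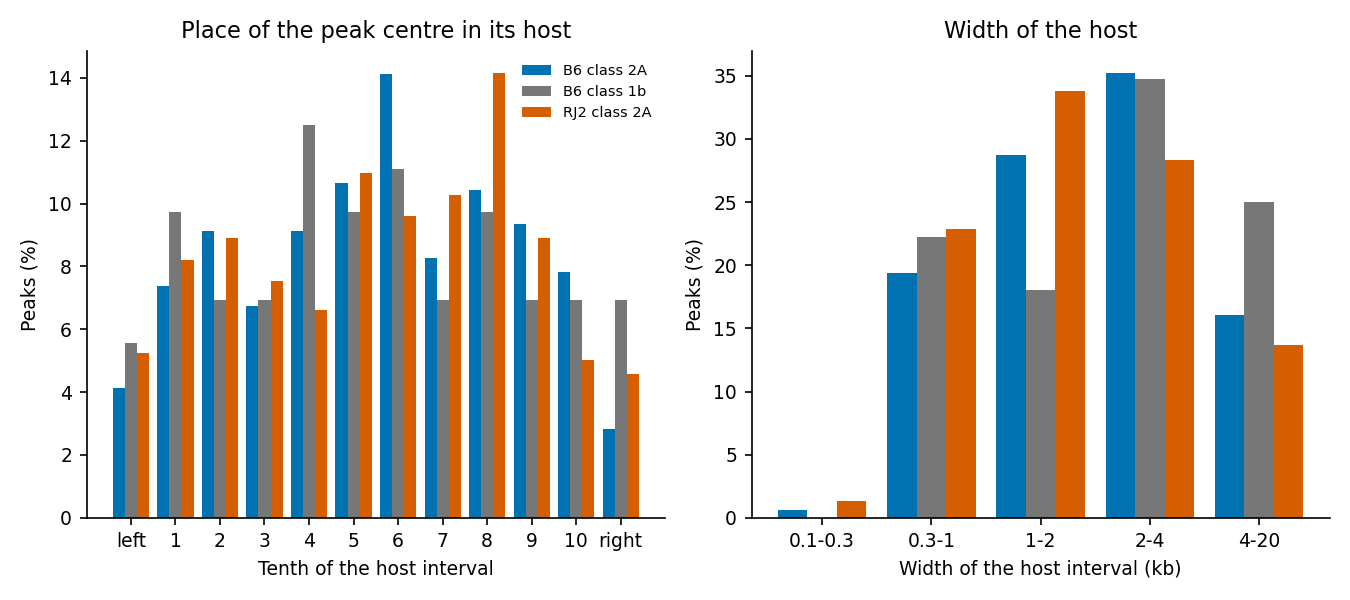
Left, share of peaks (vertical axis, %) by which of 10 equal parts of the host H3K4me3 interval held the peak centre, with centres outside the host at left and right, for 460 class 2A and 72 class 1b peaks of B6 and 438 class 2A peaks of RJ2. Right, share of peaks (%) by the width of the host in kb; most member hosts lay between 1 and 4 kb, and member centres were spread over the whole host, with the highest share just past the middle.

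The pieces lay in order around the start. Another common interval lay within 2 kb of the host on both sides in 53 members (11.5%), on 1 side in 229 (49.8%) and on neither in 178 (38.7%). The share with both sides was 12.5% in class 1b and 13.5% in RJ2 class 2A, and neither difference passed the test (exact test, adjusted p = 0.843 and 0.483, differences of -0.978 and -1.95 points). In 229 members exactly 1 side had a neighbour within 1 kb, and the centre lay in the part of the host that faces the neighbour in 183 of them (79.9%, interval 74.1 to 84.9%). In RJ2 class 2A this was 132 of 208 (63.5%) and in class 1b 6 of 24. Starts of coding genes in common intervals faced their only neighbour in 3134 of 4245 cases (73.8%).

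At the 312 members near a start without divergent transcription the neighbour within 1 kb was downstream of the host in 127 (40.7%), upstream in 32 (10.3%), on both sides in 33 and absent in 120. For all coding starts in common intervals the same numbers were 2323 of 9893 (23.5%) downstream and 1922 (19.4%) upstream. For the 246 RJ2 class 2A peaks of this kind they were 58 (23.6%) downstream and 74 (30.1%) upstream. The host of a B6 member was thus more often the piece on the upstream side, with the neighbouring piece further into the gene. The host is by definition the interval with the longest overlap. With 1 direction of transcription 75.5% of member centres lay upstream of the start. The side of the neighbour is therefore set in part by the place of the peak and is no separate finding. No test was made of these shares.

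There were 327 gaps of up to 1 kb beside the hosts, with a median of 155 bp and a central 50% from 77.5 to 340 bp. Across such a gap 32 members (6.96%) met 2 common intervals. Their gaps had a median of 94.5 bp, between 3 and 268 bp, the nearest start lay in the gap in 12, and the peak centre in 13. Counting all members, 428 centres (93.0%) lay in an interval, 22 (4.78%) in a gap of up to 1 kb and 10 beyond an outer edge, whereas 68.1% of coding starts within 1 kb of a common interval lay in one, 18.2% in a gap and 13.7% beyond an edge. The rule asks for H3K4me3 over the peak, which sets these shares in part. The first 5 split members were those of Eif4a3, Supt5h, Dbr1 (the debranching enzyme of introns), Rpl12 and 4833439L19Rik, with gaps of 96, 133, 3, 17 and 20 bp.

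The word was in 16 of the 32 split members. Of the 13 gaps whose sequence was read, 4 held the word, those of Eif4a3, Supt5h, Ttc32 and Mageb6-ps. The 13 are only a part of the 32 gaps, so this count gives no share of gaps with the word. In the peak of Eif4a3 (chr11:119161202-119161780, place 19) and in that of Ttc32 (chr12:9036655-9037390, place 536) it stood in the gap itself. The gaps, chr11:119161404-119161499 on the minus strand and chr12:9036964-9037063 on the plus strand, are shown with the word in capitals.
Eif4a3 gap: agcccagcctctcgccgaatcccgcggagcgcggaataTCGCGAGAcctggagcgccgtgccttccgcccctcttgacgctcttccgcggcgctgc
Ttc32 gap: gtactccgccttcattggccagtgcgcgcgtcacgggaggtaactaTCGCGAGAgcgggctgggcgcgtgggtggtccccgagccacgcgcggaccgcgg

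The hosts were wide for common H3K4me3 but usual for a promoter. Their median was 2037 bp (5th to 95th percentile 496 to 6666 bp), against 1097 bp for all 41014 common intervals and 1964 bp for the 10183 that hold a start. Wider than 1964 bp were 241 hosts (52.4%), 44 of 72 in class 1b (61.1%) and 189 of 438 in RJ2 class 2A (43.2%). The difference of 9.24 points from RJ2 passed the test (exact test, adjusted p = 0.0164) and that of -8.72 points from class 1b did not (adjusted p = 0.407 by the same exact test). When intervals were joined across gaps of up to 2 kb the difference from RJ2 was 6.20 points and no longer passed (exact test, adjusted p = 0.186). Hosts over 4 kb were 74 (16.1%), against 6.86% of all common intervals. A wide interval has a greater chance of being met by a peak, so no test was made against all common intervals.

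The share of centres in the middle part was higher in wide hosts. Only 72 of 92 centres lay in an interval for hosts of up to 1 kb, against 122 of 132, 160 of 162 and 74 of 74 for the wider ones. Centres outside cannot count as in the middle part, which lowers the share in narrow hosts. In hosts of up to 1 kb 37 of 92 centres (40.2%) lay between 25 and 75% of the length, in hosts from 1 to 2 kb 54 of 132 (40.9%), from 2 to 4 kb 93 of 162 (57.4%) and over 4 kb 55 of 74 (74.3%). The share of members within 1 kb of a start went from 77.2 to 93.2% over the same widths, and that at divergent starts from 17.4 to 29.7%. The widest hosts belonged to Wbp7 (12114 bp, centre at 1.5% of its length), Ttc12 (10931 bp, 50.9%), Btbd10 (10268 bp, 73.6%), D1Pas1 (9733 bp, 39.4%) and N4bp2l2 (9148 bp, 92.7%), and the narrowest to Suv39h1, a histone H3K9 methyltransferase (194 bp, centre outside it), Ncl, which encodes nucleolin (227 bp), Ubr3 (235 bp), Zzz3 (311 bp) and 2310015A10Rik (319 bp).

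The members were found along the whole list and did not meet any Spo11KO peak. Along 8 parts of the list they numbered from 80 to 51, with 237 of 460 (51.5%) in the first 1300 places, against 55.3% of class 1 and 8.85% of class 2B. PRDM9 peaks of Spo11KO testes, which make no programmed breaks, overlapped 35.5% of all B6 peaks, 918 of 1881 class 1 peaks (48.8%, interval 46.5 to 51.1%), 5 of 260 class 2B peaks (1.92%) and 0 of 460 members, which allows a share of up to 0.799%. The difference from class 1 was -48.8 points (two-sided Fisher's exact test, adjusted p = 1.5e-114) and that from class 2B -1.92 points (exact test, adjusted p = 0.0164). No Spo11KO peak lay within 5 kb of a member.

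The Spo11KO list is shorter, with 1070 peaks, and the overlap of class 1 peaks fell with their place, so peaks of like place were compared. In the first 325 places 226 of 244 class 1 peaks were overlapped (92.6%) and 0 of 80 members (up to 4.51%). In the next 325 places these numbers were 208 of 269 (77.3%) and 0 of 51. In the last 326 places 21 of 148 class 1 peaks (14.2%) and 0 of 60 members were. Among the first 1070 places 635 of 856 class 1 peaks (74.2%) and 0 of 199 members (up to 1.84%) were overlapped. Class 2B peaks lay mostly late in the list, and 3 of the 15 in those places were overlapped (20%, interval 4.33 to 48.1%). By the same class rule the Spo11KO list itself held 77 class 2B peaks (7.20%) and 3 class 2A peaks (0.280%). The 3 class 2A peaks were near Dux (chr10:57675385-57677692), Slc1a2 (chr2:102499388-102499662) and Pfkfb1 (chrX:147023291-147023549), at 3969505, 259040 and 1214323 bp from the nearest member. The centre of the peak near Slc1a2 was 17 bp from that of a class 1b peak of B6 (chr2:102499290-102499794, place 83), 1 of the peaks given above as nearest to the DMC1 limit.

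**Figure D5:**
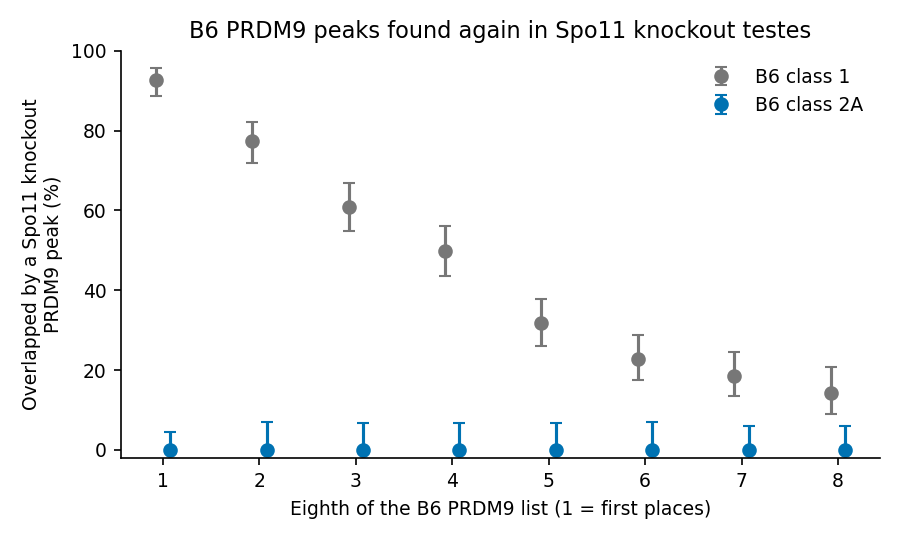
Share of B6 PRDM9 peaks overlapped by a PRDM9 peak of Spo11KO testes (vertical axis, %) in 8 successive parts of the B6 list (horizontal axis), for class 1 and class 2A, with 95% Clopper-Pearson intervals. Class 1 falls from 92.6 to 14.2%, and class 2A is at 0 in every part.

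Along the list the members changed in step with their place. In the first 650 places 127 of 131 members (96.9%) lay within 1 kb of a start, in the next 650 101 of 106 (95.3%), then 88 of 103 (85.4%) and at last 91 of 120 (75.8%). The median CpG ratio went from 0.905 to 0.873, 0.770 and 0.733 and the share at divergent starts from 26.0 to 24.5, 21.4 and 10.8%. The share with the centre between 25 and 75% of the host moved less, with 52.7, 52.8, 54.4 and 48.3%.

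The first 10 members in list order were all centred within 205 bp of a start. They were Rbm39 (place 13, centre -49 bp from the start, host of 5115 bp), Ube2d3 (place 18, -186 bp, 3152 bp), Eif4a3 (place 19, -88 bp, 1418 bp), Hspa4 (place 22, -77 bp, 1580 bp) and Psmd5, an assembly factor of the proteasome (place 25, -184 bp, 1843 bp). They were followed by Rps7, of the small ribosomal subunit (place 26, 81 bp, 2659 bp), Eif5, a translation initiation factor (place 32, -205 bp, 5585 bp), Uhrf2 (place 34, -173 bp, 2131 bp), Mob1a (place 40, -58 bp, 935 bp) and 1600012H06Rik (place 45, -4 bp, 4188 bp). The centre of Rps7 lay in an exon with a UTR and the others outside annotated genes.

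At short range members were mostly single, while 224 of 460 (48.7%) had another within 1 Mb. The same shares were not counted for other peaks or for common intervals. Neighbours on a chromosome were a median of 2.30 Mb apart, 0 pairs were within 1 kb and 1 pair within 10 kb, and 42 members (9.13%) had another within 100 kb. The closest pair was Cenpt and Thap11 on chromosome 8 (2943 bp apart, chr8:108375682-108376171 and chr8:108378719-108379020), followed by Mrps14 and Cacybp (17762 bp), Etf1 and Hspa9 (22354 bp) and Sap18 and Mrp63 (28071 bp). Of the windows of 1 Mb with a member 306 held 1, 55 held 2, 12 held 3 and 2 held 4. The fullest were on chromosome 11 from 77 Mb (Taok1, Gm10277, Phf12 and Rpl23a) and on chromosome 17 from 28 Mb (Taf11, Rpl10a, 4930511I11Rik and Mapk14), which have 53 and 32 common intervals, and the next place was shared by windows with 3 members.

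By chromosome, leaving out Y, members made up between 9.09% (chromosome 18, 7 of 77) and 30% (chromosome 7, 42 of 140) of the B6 peaks. For each 100 coding genes with a start in common H3K4me3 there were from 3.43 members on chromosome 18 (7 members) to 6.50 on chromosome 1 (31 members) among the autosomes, 2.01 on the X chromosome (9 members) and 0 on the Y chromosome, which had 8 such genes and 0 B6 peaks.

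Of the 8961 coding genes with a start in common H3K4me3, 428 (4.78%) had a member centred within 1 kb of a start. Of the 193 whose start held the word in the 300 bp around it, 137 (71.0%) had a member, and of the 8768 without it 291 (3.32%). The shares below are to be read against 4.78%. The lists were made of gene symbols, many taken by the start of the symbol alone, such as Lsm, Cdc or Sirt. The name of a list thus need not give the function of each gene in it. Of the 428 genes with a member, 210 had the word in the peak, and the counts of the word in each list are to be read against that.

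Ribosomal protein genes had the highest share of the 15 gene lists counted, with 21 of 88 (23.9%, interval 15.4 to 34.1%). The first were Rps7 (place 26, 81 bp), Rps19 (place 65, 93 bp), Rpl26 (place 89, -60 bp), Rps28 (place 121, 18 bp), Rpl12 (place 147, 39 bp) and Rps3a (place 213, 5 bp). The word was in the peaks of 15 of the 21. Around the starts themselves it was in 10 of 88 (11.4%), and all 10 had a member, as had 11 of the 78 without it (14.1%).

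The splicing list had a member at 9 of 89 genes (10.1%, interval 4.73 to 18.3%), with Rbm39, Lsmd1, Luc7l2, Lsm14a, Lsm3 and Prpf4 first. The transcription machinery followed with 8 of 93 (8.60%), first the Mediator subunit Med22, the polymerase subunits Polr2b, Polr1c and Polr2e, the TFIIIC subunit Gtf3c4 and the Mediator subunit Med1, and 6 of the 8 held the word. The ubiquitin and proteasome list had 10 of 129 (7.75%), with Ube2d3, Psmd5, Psmb2, Cul5, Psmd13 and Psmd3 first. The cell cycle list had 7 of 95 (7.37%), with Cdc5l, Cdc45, Cdc26, Cdc20, Cdk5 and Ccni first. The mitochondrial list had 11 of 172 (6.40%), with Cox11, Ndufa7, Mrpl48, Timm17a, Mrpl40 and Mrps14 first. The word was in 5 of the 9 splicing members, 4 of the 10 of the ubiquitin and proteasome list, 1 of the 7 of the cell cycle list and 3 of the 11 of the mitochondrial list. Ndufa7 shares its member with Rps28, and Med22 with Rpl7a. The intervals of these lists reach down to 4.73% or less and so hold the 4.78% of all genes.

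Of 31 meiosis genes 3 had a member (9.68%, interval 2.04 to 25.7%), an interval that holds the 4.78% of all genes. They were Sycp1, the transverse filament (chr3:102739870-102740383, place 703, -104 bp), Smc1b, a meiotic cohesin (chr15:84962199-84962850, place 1073, -138 bp) and Stag3, another meiotic cohesin subunit (chr5:138721406-138721822, place 1645, -123 bp). The peaks of all 3 held the word. The start nearest to the Smc1b peak was that of Ribc2, at -4 bp. Of 61 genes of DNA damage and repair 1 had a member, Mre11a (place 383, 5 bp), which trims broken ends, and its peak held the word too.

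Lists at or under the background were translation factors with 2 of 49 (4.08%, Eif4a3 and Eif5), chromatin regulators with 4 of 84 (4.76%, Ino80, Smarcd2, Sirt3 and Kdm3a), histone genes with 1 of 37 (2.70%, H2afz) and zinc finger proteins with 7 of 261 (2.68%, with Zfp566, Zfp91, Zfp414, Zfp286, Zfp386 and Zfp346 first). The word was in 2 of the translation, 2 of the chromatin, 0 of the histone and 4 of the zinc finger members. Developmental transcription factors had 2 of 29 (6.90%, Hoxa7 and Foxj3, 0 with the word), spermatid genes 0 of 30, and the 1 gene of the Sertoli and Leydig list with a start in common H3K4me3 had none (0 of 1). Small lists such as these leave wide intervals, up to 11.6% for the spermatid genes.

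Other lists met the members rarely, in part by the way the list was made. Within 1 kb of a member lay an RJ2 PRDM9 peak in 16 cases (3.48%) and a Prdm9KO peak in 0, with 5 within 5 kb. Whole DMC1 intervals of B6 were met by 2 members and lay within 5 kb of 23 (5.00%). A host in common with an RJ2 class 2A peak was found for 3 members, at Ankrd39, Arid3a and Wif1, where the centres of the B6 and RJ2 peaks were 749, 1123 and 1319 bp apart.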

How the data were processed

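The authors deposited the peak lists as intervals on mm9 (start and end, no other value). Per the labels and the methods, reads were mapped with Bowtie2 (PRDM9), Bowtie (H3K4me3) or a modified BWA (DMC1) and peaks were called with MACS. PRDM9 and DMC1 replicates were combined by the irreproducible discovery rate, and a relaxed threshold was used on the single Prdm9KO library. The methods also describe removing PRDM9 peaks over Prdm9KO peaks, and the paper set apart the peaks shared by B6 and RJ2. The lists carry no read counts, so depth and enrichment could not be weighed. H3K36me3 libraries were not used here.

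Members were assigned by overlap in Python 3.11.15 with numpy 2.4.6, pandas 2.3.3, scipy 1.17.1 and pysam 0.24.0, and figures drawn with matplotlib 3.10.9. Starts came from GENCODE M1 and sequence from NCBIM37, the same build as mm9. Shares were compared by two-sided Fisher's exact test, adjusted by Benjamini-Hochberg over 8 comparisons, with 2 more added after the data had been seen and adjusted apart, at a threshold of 0.05. The overlap, host, word and test steps were tested on simulated data. Words were searched on both strands in the central 300 bp.

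The members, gene lists and tests were chosen with earlier results of these data known. Peaks named in the text are the first 10 in list order, the 5 widest and 5 narrowest hosts, the first 5 split members, the 5 closest pairs (1 of them is not reported here), the 5 farthest from a start, the fullest windows of 1 Mb, those nearest the limits of the rule and the first 6 of each gene list. Those shown for their sequence (gaps included), for the Dom2 word or for a host shared with RJ2 were chosen after their values were seen. Alternatives changed the coverage, the DMC1 window, the joining of intervals, the distances, the annotation and the part of the list.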

Additional observations from a re-analysis of the deposited data

How the results depend on the processing

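No paired analysis was possible because the replicates were pooled into 1 list of intervals per genotype, and for the same reason no replicate could be left out. The lists hold no depth, so a peak absent from a list cannot be told from one below its threshold. With peaks of the first 650 places alone, the share overlapped by Spo11KO peaks less that of class 1 was -84.6 points and less that of class 2B (6 peaks there) -33.3 points, against -48.8 and -1.92 points, with the same call. The number of members was between 316 and 462 over the alternatives. Wide hosts less those of RJ2 class 2A were 18.2 points in the first 1300 places, against 9.24 points.

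Joining common intervals changed the comparisons of hosts. The share of centres in the middle part of the host, less that of class 1b, was 26.64 points (gaps up to 500 bp) and 28.95 points (2 kb), and less that of RJ2 class 2A 13.1 and 17.02 points, all past the threshold that the deposited intervals missed. The share of wide hosts less that of class 1b turned from -8.72 to 0.966 and 1.53 points, never past the threshold, and less that of RJ2 class 2A it was 6.20 points at 2 kb and lost its call. The share with further intervals on both sides less that of class 1b turned from -0.978 to 0.676 points within 5 kb and 0.725 points with any H3K4me3 list, also without a call. The cause was not tested, apart from the joining itself.

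Shares without a test moved with their definition. Another member lay within 1 kb of 0% of members, within 50 kb of 3.04% and within 100 kb of 9.13%, and within 10 kb of 0% in the first 1300 places, against 0.435% within 10 kb. In those places 96.2% lay within 1 kb of a start. The share upstream was 65.9% with 1 start per gene and 75.5% with 1 direction of transcription, and divergent starts were at 15.4% with coding genes alone. The word was in 36.5% of central 200 bp windows, in 65.8% of members in the first 1300 places and in 20.2% of the later ones. With starts within 1 kb of a common interval 4.10% of genes had a member.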
